A study of Homo sapiens with 6 samples.

Results

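The genes described here encode the proteins of the cytosolic ribosome and the paralogs that some of them have. The family was picked with earlier results of these data known, and its members were then set by a rule on the symbol. They are protein-coding rows of the expression table whose names follow the RPL, RPS, RPLP and RPSA pattern, without the Y-linked copies of RPS4X. The rule found 84 of 58735 genes. Of these, 77 are the core genes, 31 for proteins of the small (40S) subunit and 46 for proteins of the large (60S) subunit, and 7 are paralogs whose names end in L or L1. The rule leaves out RPL36AL, whose name carries an extra letter, and ribosomal proteins that are named differently, such as FAU and RACK1.

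RNA was sequenced from HEK293 cells, a line derived from human embryonic kidney, that stably carried a tensin 2 whose tyrosine had been exchanged for glutamate (Y483E) or for phenylalanine (Y483F). Glutamate is used to mimic a phosphorylated tyrosine, and phenylalanine cannot be phosphorylated. Each line gave 3 libraries that the titles call biological replicates, 6 in all, and the descriptions number them 1, 4 and 5 in both lines (replicates 1, 2 and 3). The study set the lines against each other, so neither is an unmodified control, and the labels do not say whether a line was 1 clone or many. TNS2 itself was read at 0.753 to 1.05 FPKM (reads scaled to gene length and library total) in the Y483E libraries and at 1.07 to 1.16 FPKM in the Y483F libraries, which does not tell the introduced copy from the cell's own. The libraries held between 17204498 and 23284592 gene reads, 5 of 9 genes listed as markers of HEK293 cells averaged at least 1 FPKM, and none of 13 markers of other cell types did.

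A cytosolic ribosome holds 1 copy of nearly every one of these proteins, the P stalk proteins being the known exception, so cells need them in equal numbers although each comes from a gene of its own. Most messenger RNAs of this family begin at a cytosine followed by an uninterrupted stretch of pyrimidines, the terminal oligopyrimidine (TOP) motif, through which LARP1 and the kinase mTOR control their translation. Since polysome occupancy was not measured here, the values below are of messenger RNA level only. In bulk RNA, a change in the number of cells of a type and a change in RNA per cell cannot be told apart.

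The starts of the messenger RNAs are shown first because most core genes share a motif there. RefSeq promoters (GRCh38.p14) were on hand for 67 of the 84 members, 62 core genes and 5 paralogs. Of the core genes with an entry, 46 of 62 (74.2%) had a C at an annotated start and a run of at least 5 pyrimidines from it, and so did 1 of the 5 paralogs, against 5.14% of all 27305 genes in the promoter table. Each window below holds the 20 bases before the start and the first 20 from it, read 5′ to 3′ on the gene's strand, and the capitals mark the pyrimidine run that begins at the start. For the 11 members with several starts, the one with the longest run was taken. The first windows are of core genes that the comparison of the lines turns on or that span the range of runs.
RPL13, chr16:89560662-89560701, plus strand: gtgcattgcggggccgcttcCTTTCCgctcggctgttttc
RPL13A, chr19:49487588-49487627, plus strand: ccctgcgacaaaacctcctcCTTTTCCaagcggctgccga
RPS9, chr19:54200838-54200877, plus strand: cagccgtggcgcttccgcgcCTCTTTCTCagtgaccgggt
RPLP0, chr12:120201092-120201131, minus strand: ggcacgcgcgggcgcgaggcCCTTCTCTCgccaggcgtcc
RPS6, chr9:19380217-19380256, minus strand: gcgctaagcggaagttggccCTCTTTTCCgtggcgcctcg
RPL36A, chrX:101390991-101391030, plus strand: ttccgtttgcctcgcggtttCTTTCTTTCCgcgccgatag
RPL41, chr12:56116613-56116652, plus strand: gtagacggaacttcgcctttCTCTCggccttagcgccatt
RPL39, chrX:119791611-119791650, minus strand: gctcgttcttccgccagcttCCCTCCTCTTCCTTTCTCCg
RPS28, chr19:8321476-8321515, plus strand: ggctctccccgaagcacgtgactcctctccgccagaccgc

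RPL39 had the longest run of all members with an entry, 19 pyrimidines, RPL41 had 5, and the entry of RPS28 had none at its start. The next windows set 3 paralogs beside the core genes that they are named after.
RPS27L, chr15:63157458-63157497, minus strand: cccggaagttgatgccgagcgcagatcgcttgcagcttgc
RPS27, chr1:153990742-153990781, plus strand: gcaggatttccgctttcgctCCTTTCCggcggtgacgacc
RPL22L1, chr3:170870176-170870215, minus strand: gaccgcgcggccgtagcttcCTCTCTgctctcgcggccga
RPL22, chr1:6199576-6199615, minus strand: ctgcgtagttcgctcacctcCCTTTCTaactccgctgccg
RPL26L1, chr5:172958709-172958748, plus strand: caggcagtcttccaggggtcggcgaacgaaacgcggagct
RPL26, chr17:8383174-8383213, minus strand: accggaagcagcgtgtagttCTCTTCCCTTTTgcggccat

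RPL22L1 was the 1 paralog among those with an entry that had a run at its start, of 6 pyrimidines, and the RefSeq starts of RPS27L, RPL26L1, RPL7L1 and RPL10L had none. The letters CTTTCC, searched on both strands within such windows at every annotated start of a gene, were found in 20 of 62 core genes (32.3%), in none of 5 paralogs and in 4.53% of all genes in the table. The letters TATAA, searched on both strands in the 50 bases before every annotated start, were found in 9 of 62 core genes (14.5%), in 2 of 5 paralogs and in 7.61% of all genes. These letters overlap the pyrimidine runs in part, as in RPL13, and a match is a description of the annotated start only. Among the 17 members without an entry were RPL5, RPL7, RPL8, RPL30, RPL39L, RPL3L, RPS2 and RPS15A.

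The core genes were among the most abundant messages of these cells, and 65 of 77 averaged at least 100 FPKM. Over the 6 libraries the median core gene stood at 298 FPKM, against 6.52 FPKM for the median of the 12833 genes that averaged at least 1 FPKM. RPS2, which lines the channel where messenger RNA enters the ribosome, was the highest at 1293 FPKM. RPL41, which encodes the shortest protein of the ribosome, followed at 1112 FPKM, then RPS4X at 938, RPL8 at 875 and RPL13A at 845 FPKM. FPKM divides by the authors' gene length, which equalled the summed exons of all transcripts in GENCODE 29 for 84 of 84 members and can exceed the length of the main message. Counted per kilobase of coding sequence in place of gene length, RPL41 came first with 311827 reads, RPS16 second with 95812, and RPS2 ninth with 68156. The core genes therefore did not have equal message levels on either scale: without the 7 genes described next, FPKM ran from 20.4 to 1293 and reads per coding kilobase from 15018 to 311827. The upper end is RPL41, whose reads over all exons are divided by 75 coding bases although its principal transcript has 469 bases. The next highest, RPS16, had 95812.

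The bottom of the range belongs to genes that overlap a neighbour. For 7 core genes, over 50% of the coding bases also lie in exons of another gene on the same strand, such as a read-through gene. Among them were RPL17 (100%), RPL36A (94.3%), RPS10 (92.1%), RPL26 (71.0%), RPL22 (59.9%) and RPS15A (54.6%). No other core gene shared over 2% of its coding bases. Of the 7 core genes with the lowest mean FPKM, 6 were among these, RPS29 being the other. RPS10 was lowest at 1.35 FPKM, and RPL36A stood at 4.20, RPL17 at 19.4 and RPS29 at 20.4 FPKM. The gene length of RPS29 is 9845 bases against 296 for its principal transcript, which lowers its FPKM. The overlapping genes, such as RPL36A-HNRNPH2 and RPS10-NUDT3, held 0 to 3 reads in any library. The sources used here do not say how reads in shared bases were counted, so the levels and changes of these 7 genes are uncertain.

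**Figure D1:**
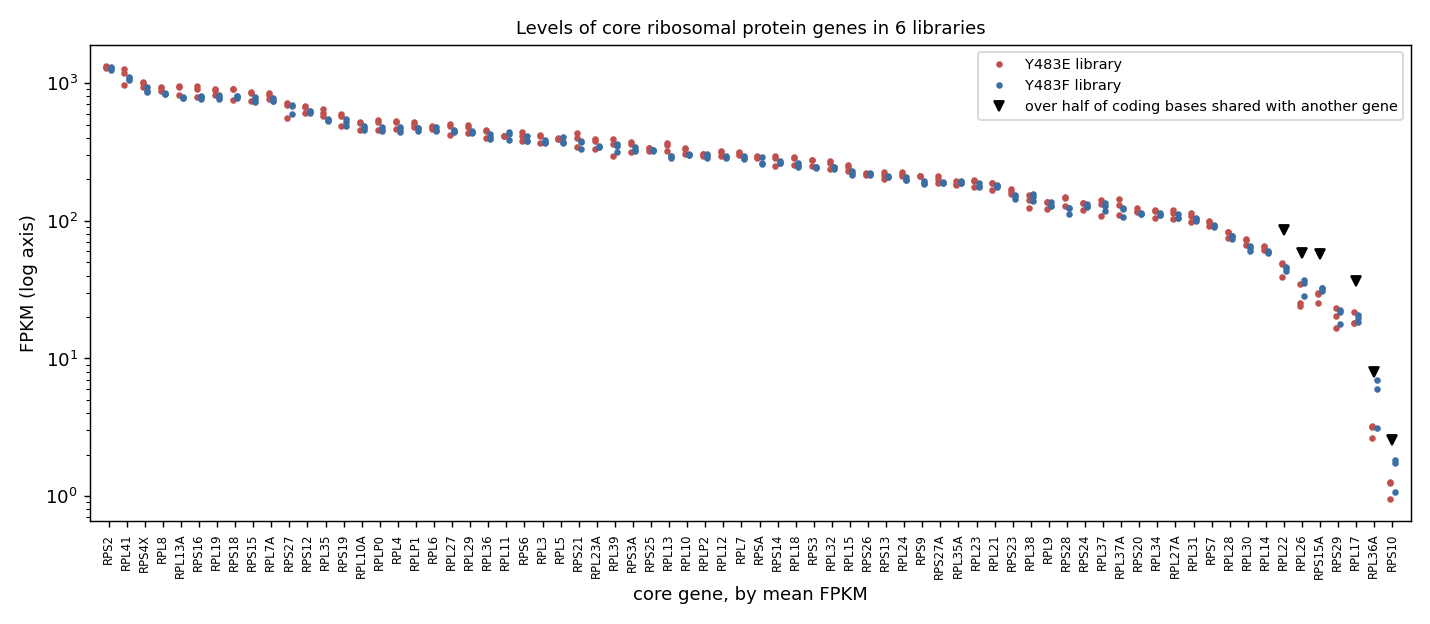
FPKM (log axis) of 72 of the 77 core genes in every library, ordered by the mean, with 1 point a library, Y483E in red and Y483F in blue. Black triangles mark the 6 genes shown that share over 50% of their coding bases with another gene, and these lie at the right end, with RPS29 between them.

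Copies elsewhere in the genome hold some of the family's reads. The table lists 1144 pseudogene rows named after 77 members, of which 385 had a read, and together these rows held between 3.40% and 3.64% as many reads as the members themselves in each library. RPL23A had the most such rows, 91. For RPS28 the 3 pseudogene rows averaged 4537 reads against 5338 at the gene, and for RPS2 the 20 rows averaged 18370 reads against 59909, so the levels of these genes depend on how the authors' counting split near-identical copies. Introns of 28 members also house 60 small nucleolar RNA genes, the guides of ribosomal RNA modification, of which 13 had any read after poly-T selection.

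The question asked of the 2 lines was whether the glutamate and phenylalanine forms of tensin 2 leave different messages in the cell. In the ribosomal protein genes the difference was small and mostly of 1 sign. Over 6 libraries the median core gene had a log2 fold change (Y483E over Y483F, on log2 of FPKM + 1) of 0.08, against 0.01 for all 12833 genes tested, and 65 of 77 core genes (84.4%) were higher in Y483E, against 52.8% of all genes. Leaving out 1 library at a time, the core median ran from 0.05 (without Y483E replicate 2) to 0.13 (without Y483E replicate 1). For 75 of 77 core genes the change was under 1.2-fold in either direction. The subunits were alike, with a median of 0.08 in both and 25 of 31 genes higher for the 40S subunit and 40 of 46 for the 60S subunit. No core gene passed an adjusted p of 0.05 by limma with Benjamini-Hochberg adjustment, where 0.0% of all genes did. At an unadjusted limma p under 0.05, 12 core genes were higher and 2 lower, where 6.51% of all genes were higher and 5.7% lower. The direction of 58 core genes was positive and of 7 negative under each of 5 scalings of the libraries, and the sign of the other 12 depended on the scaling. With edgeR on the recovered reads no core gene passed either (0.0125% of all genes called higher, 0.0313% lower). With DESeq2 on the same reads 1 core gene, RPL13, was called higher (0.186% higher and 0.218% lower among 31211 genes with a read, also those under 1 FPKM). With a weight for each library in limma, 18 core genes were called higher and 2 lower (7.32% and 7.39% of all genes).

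Core genes as a whole took a larger share of the reads in Y483E replicates 2 and 3 than in the other 4 libraries. The share was 7.46%, 8.39% and 8.32% of all reads in Y483E replicates 1, 2 and 3, and 7.52%, 7.54% and 7.59% in Y483F replicates 1, 2 and 3. Y483E replicate 1 was the lowest of all 6, so the groups overlap. The median deviation of the core genes from their own means was −0.06, 0.10 and 0.08 (log2) in the Y483E libraries and −0.04, −0.05 and −0.03 in the Y483F libraries. The ratio of 60S to 40S reads was 1.53 in each Y483E library and 1.53, 1.52 and 1.51 in the Y483F libraries. Other RNA classes also differed among the same libraries. Reads of the mitochondrial protein-coding genes made up 1.67%, 1.64% and 0.900% in Y483E and 1.55%, 2.64% and 2.51% in Y483F, and the median small nucleolar RNA deviated by −0.19, −0.10 and −0.33 (log2) in Y483E and by −0.08, 0.35 and 0.26 in Y483F. These shares compete within 1 library total, and their part in the core gene result was not tested.

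**Figure D2:**
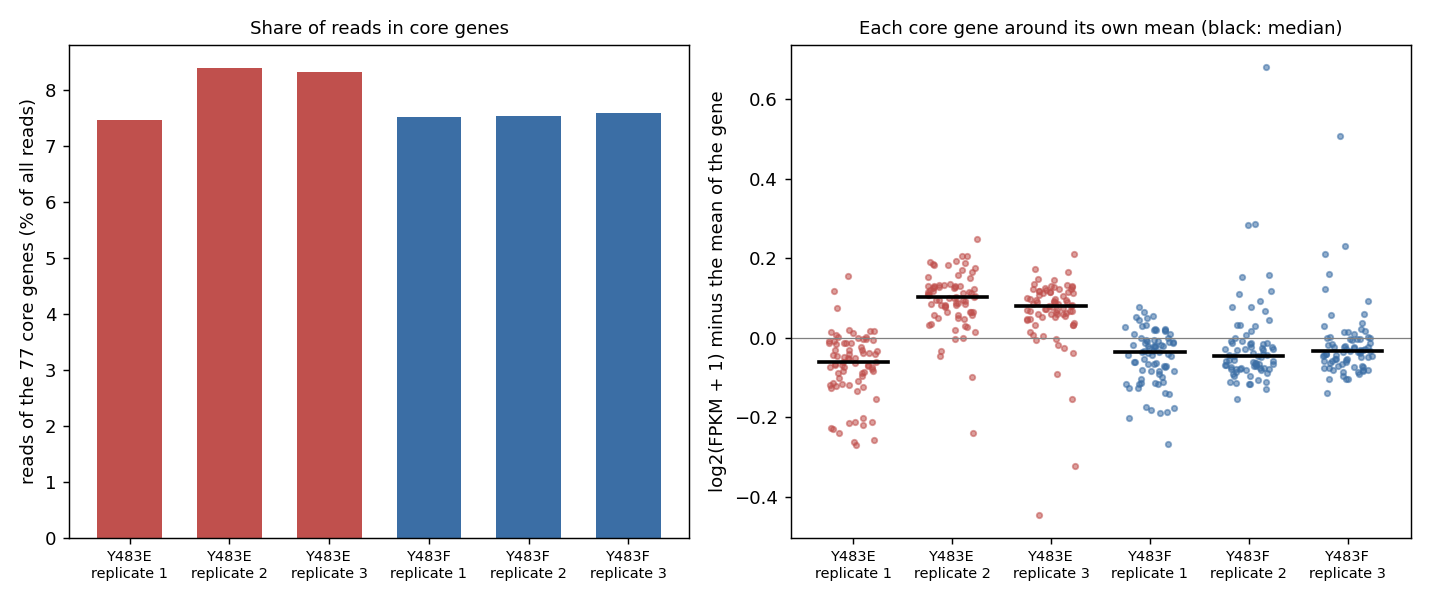
Left, bars give the reads of the 77 core genes as a percentage of all gene reads in each library, Y483E in red and Y483F in blue, with the axis from 0. Right, each point is a core gene's log2(FPKM + 1) minus its mean over 6 libraries, and the black line is the median, which is above 0 in Y483E replicates 2 and 3 only.

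RPL13 and RPL13A, both of the 60S subunit, were among the 4 core genes with the highest fold changes, with RPS28 of the 40S subunit and RPL35, which sits at the rim of the exit tunnel. RPL13 was read at 320.6, 356.3 and 369.7 FPKM in Y483E replicates 1, 2 and 3, against 294.9, 286.9 and 297.1 FPKM in Y483F replicates 1, 2 and 3. All Y483E libraries were above all Y483F libraries. The log2 fold change was 0.25 ± 0.06 (SE, n = 3 each, limma adjusted p = 0.265), and the exact two-sided permutation p of 0.1 is the smallest that 3 against 3 libraries allow. In the authors' deposited table the log2 fold change of RPL13 was 0.25 with an adjusted p of 0.00630.
RPL13A, a protein also known for translational silencing in interferon-treated monocytes, was read at 816.3, 958.4 and 943.8 FPKM in Y483E, against 776.3, 778.0 and 794.3 FPKM in Y483F. The groups did not overlap, and Y483E replicate 1 was closer to the Y483F libraries than to the other Y483E ones. The log2 fold change of RPL13A was 0.21 ± 0.07 (SE, n = 3 each, limma adjusted p = 0.352).
RPS28 was read at 127.9, 147.8 and 146.6 FPKM in Y483E, against 112.7, 124.5 and 123.4 FPKM in Y483F, again with no overlap. The log2 fold change of RPS28 was 0.22 ± 0.07 (SE, n = 3 each, limma adjusted p = 0.322), and 21.4% of its exon bases lie under exons of the other strand. Since the libraries' strandedness is not known, reads of such neighbours could have been counted with it.
RPS9, a 40S protein near the entry of messenger RNA, was nearly the same in all 3 Y483E libraries. It was read at 211.0, 212.2 and 211.7 FPKM in Y483E, against 195.4, 187.1 and 186.2 FPKM in Y483F, a log2 fold change of 0.16 ± 0.04 (SE, n = 3 each, limma adjusted p = 0.272). Y483E replicate 1 stood with its own line for this gene. RPL35 was read at 579.9, 644.9 and 611.8 FPKM in Y483E, against 529.8, 547.5 and 542.8 FPKM in Y483F (log2 fold change 0.18 ± 0.06, SE, n = 3 each, limma adjusted p = 0.315). For it too all Y483E libraries lay above all Y483F libraries.

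In all, 17 core genes lay higher in every Y483E library than in every Y483F library and 1 lay lower, where 9.72% of all tested genes lay higher and 7.37% lower. The others higher without overlap included RPL30, RPS3, RPS23, RPL8, RPL24, RPL10, RPLP1, RPL7, RPL12, RPL14 and RPS20, with log2 fold changes between 0.08 (RPS20) and 0.16 (RPL30). RPS3 is the 40S protein that also works in DNA repair, and RPL24 is in yeast one of the last proteins to join the 60S subunit. The gene that lay lower was RPS15A of the 40S subunit, one of the 7 with shared coding bases, at 25.3, 29.3 and 29.9 FPKM in Y483E and 31.0, 32.4 and 32.8 FPKM in Y483F. For RPS15A the log2 fold change came to −0.18 ± 0.07 (SE, n = 3 each, limma adjusted p = 0.360). The 7 genes with shared coding bases had a median log2 fold change of −0.18 and 1 of 7 was higher in Y483E, while the other 70 core genes had a median of 0.09 and 64 of 70 were higher.

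The 4 proteins of the P stalk, RPLP0, RPLP1, RPLP2 and RPL12, which recruits the GTPases of translation, were all higher, with a median log2 fold change of 0.10. RPLP0, the base of the stalk, was read at 460.6, 521.8 and 536.2 FPKM in Y483E, against 479.7, 459.0 and 452.2 FPKM in Y483F. Y483E replicate 1 lay inside the range of the Y483F libraries, and the log2 fold change was 0.12 ± 0.07 (SE, n = 3 each, limma adjusted p = 0.4998). RPL5 and RPL11 form the 5S particle, which can hold back MDM2 and so stabilise p53, and their log2 fold changes were 0.04 and −0.01. RPL11 was read at 413.9, 415.9 and 415.0 FPKM in Y483E, against 439.4, 429.1 and 387.3 FPKM in Y483F, so the Y483E libraries lay within the Y483F range.
Of 9 proteins around the exit tunnel, 7 were higher with a median of 0.06. Of 5 at the platform where messenger RNA leaves, RPS26 and RPS28 among them, 4 were higher with a median of 0.10. RPS26 was read at 213.5, 217.5 and 222.8 FPKM in Y483E, against 222.4, 213.7 and 218.3 FPKM in Y483F, which overlap fully. For RPS6, the 40S protein phosphorylated downstream of mTOR, the values were 382.3, 438.5 and 415.4 FPKM in Y483E and 415.8, 378.6 and 377.0 FPKM in Y483F, with a log2 fold change of 0.08. Here too Y483E replicate 1 lay inside the Y483F range.
Of 19 core genes known from Diamond-Blackfan anaemia, an inherited failure of red cell production, 10 were higher with a median of 0.00, nearer to the median of all genes than to that of the core genes, and 4 of these 19 are among the 7 with shared coding bases. RPS19, the first gene found in that disease, was read at 486.7, 593.7 and 580.3 FPKM in Y483E, against 485.0, 525.3 and 545.6 FPKM in Y483F, which overlap. Core genes with a TOP start had a median log2 fold change of 0.08 with 39 of 46 higher, and the 16 core genes with an entry but no such start had a median of 0.07 with 13 of 16 higher. The second class says only that no annotated start opened such a run. In RPS28, for example, a pyrimidine run begins at the base after the annotated start.

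Since both libraries numbered 1 stood apart in earlier results on these data, the lines were also compared inside the numbers. In the libraries numbered 4 and 5, 14 core genes rose and 1 fell in Y483E by limma (adjusted p under 0.05 over 12936 genes), where 2.57% of all genes rose and 2.88% fell. The median core gene had a log2 fold change of 0.13 there, against 0.02 for all genes, and 68 of 77 were higher. Between the 2 libraries numbered 1, which allow no test, the median log2 difference (Y483E minus Y483F) was −0.02 and 32 of 77 core genes were higher, against 48.5% of all genes. With edgeR on the libraries numbered 4 and 5, 43 core genes rose and 2 fell (7.07% and 7.98% of 16308 genes). With DESeq2 51 rose and 1 fell (1.61% and 1.86% of 29971 genes). The DESeq2 shares are over every gene with a read, also those under 1 FPKM, so they cannot be set beside the limma shares. These calls rest on 2 libraries a group: by limma without either Y483F library no core gene passed, without Y483E replicate 3 only RPL36A did, and without Y483E replicate 2, 4 rose and 2 fell.

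Of the 14 genes that rose, 7 belong to the 40S and 7 to the 60S subunit. RPL13 had the largest log2 fold change among them, 0.31 ± 0.04 (SE, limma adjusted p = 0.0335). RPL13A (0.27), RPS28 (0.25) and RPL30 (0.24), which binds a kink-turn in RNA, came next. RPL4 (0.22), whose long loop lines the exit tunnel, RPS16 (0.22), RPLP0 (0.22), RPS4X (0.20), RPL15 (0.20), RPS3 (0.19) and RPS9 (0.18) were among the rest. RPS4X is the X-linked form of a 40S protein, and RPL15 is one of the genes mutated in Diamond-Blackfan anaemia. For RPL4, values of 525.1 and 527.2 FPKM in Y483E stood against 441.2 and 461.0 FPKM in Y483F, while replicate 1 had 466.3 FPKM in Y483E and 479.0 FPKM in Y483F. The order of the lines in replicate 1 was thus the reverse of that in replicates 2 and 3.

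RPL36A was the core gene that fell. It was read at 3.23, 3.20 and 2.64 FPKM in Y483E replicates 1, 2 and 3, against 3.12, 6.96 and 6.05 FPKM in Y483F replicates 1, 2 and 3, from 229, 296 and 193 reads and from 212, 496 and 488 reads. The high values are those of Y483F replicates 2 and 3, and Y483F replicate 1 lay within the Y483E range. Its log2 fold change in the libraries numbered 4 and 5 was −0.94 ± 0.10 (SE, limma adjusted p = 0.0327), and over 6 libraries −0.61 ± 0.23 (SE, n = 3 each, limma adjusted p = 0.363). On the scale of log2(FPKM + 1) a fold change understates that of a gene this low, and edgeR put it at −1.15 in the libraries numbered 4 and 5. RPL36AL, the copy on another chromosome that encodes nearly the same protein, was read at 161.9, 164.5 and 166.8 FPKM in Y483E, against 155.5, 168.2 and 173.9 FPKM in Y483F, which overlap.

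**Figure D3:**
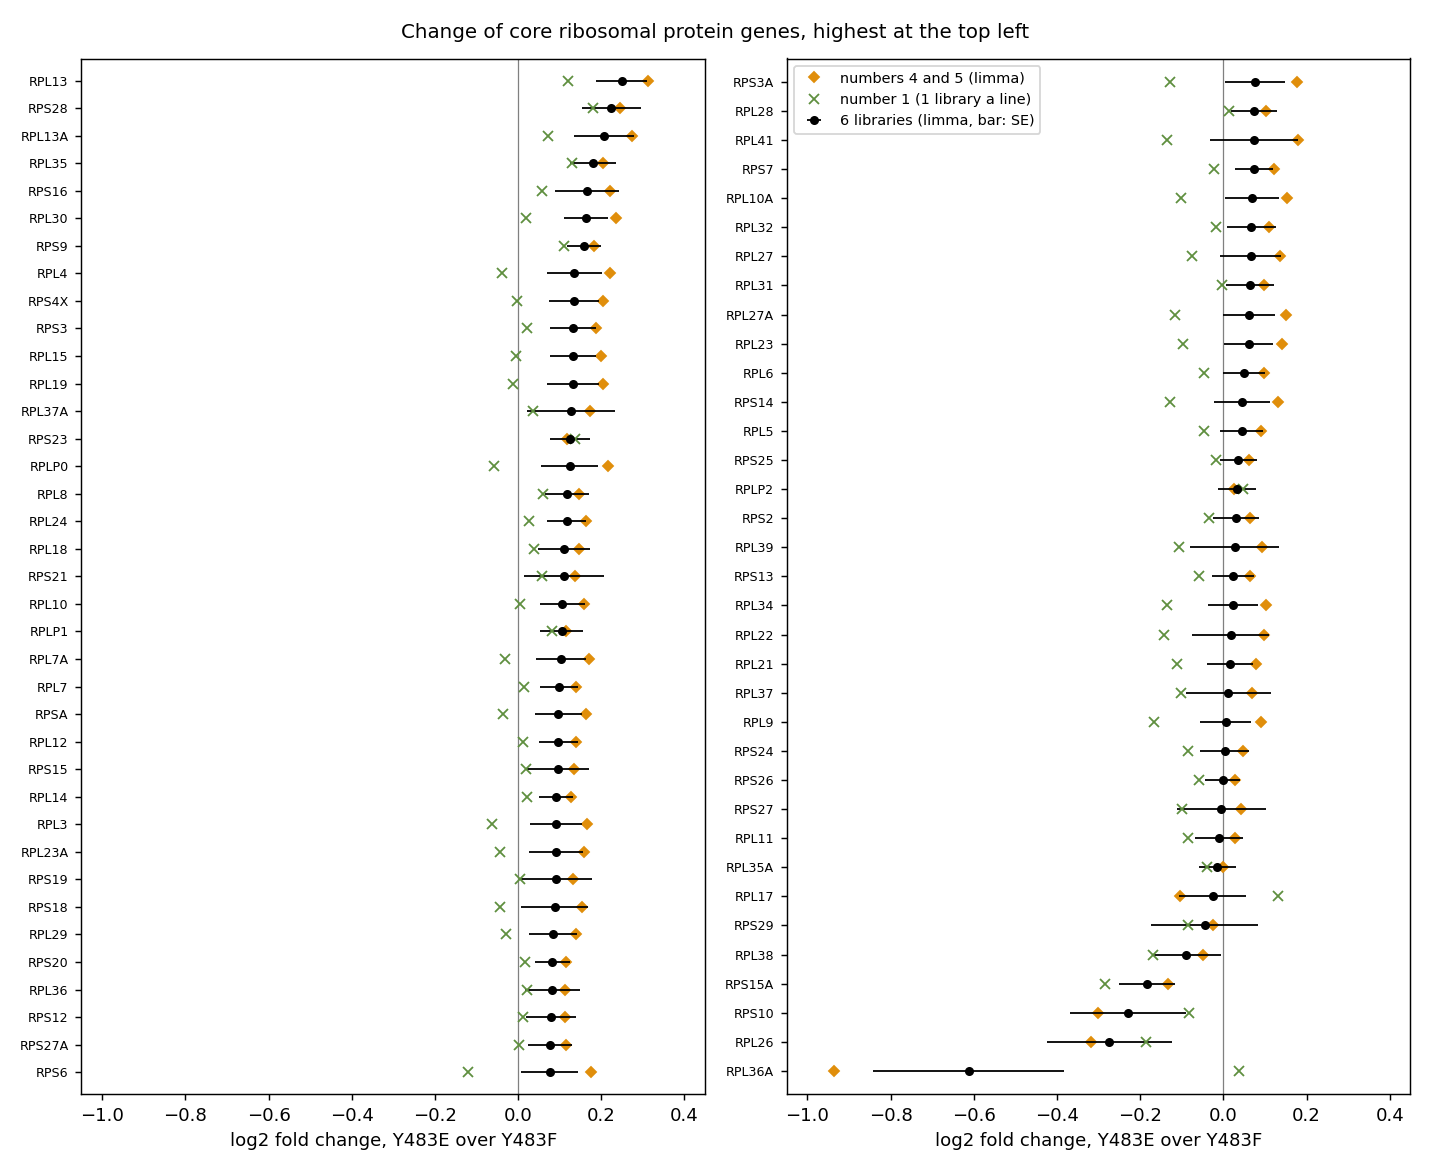
Log2 fold change (Y483E over Y483F) of 72 of the 77 core genes over 6 libraries (black, bar: SE), in the libraries numbered 4 and 5 (orange) and between the libraries numbered 1 (green), in falling order from the top left. For 66 of these 72 genes the value in numbers 4 and 5 is above that in number 1, and RPL36A is lowest at −0.61 over 6 libraries.

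The difference between the 2 comparisons was itself tested as an interaction of line and library number, coded as the effect in number 1 minus that in numbers 4 and 5. The coefficient was below 0 for 70 of 77 core genes, with a median of −0.14 against −0.02 for all genes. By limma no core gene passed an adjusted p of 0.05 (0.0312% of all genes passed in each direction). At an unadjusted p under 0.05, 33 core genes were negative and 2 positive, where 7.9% of all genes were negative and 7.99% positive. By edgeR, 4 core genes passed with a negative coefficient (RPL41, RPLP0, RPS6 and RPS3A) and 1 with a positive one (RPL36A), where 0.688% and 1.61% of all genes did. The fit has 2 residual degrees of freedom, and each lone library numbered 1 is assumed to vary like the others.

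Library number itself went with the core genes, mainly in Y483E, in a comparison added after the values had been seen. In numbers 4 and 5 over number 1, the core median was 0.16 in Y483E and −0.0003 in Y483F (log2). With line as a term, the core genes had a median log2 change of 0.07 in the libraries numbered 4 and 5 over those numbered 1, and 68 of 77 were higher, against a median of −0.01 and 46.7% of all genes. No core gene passed by limma, where 0.0% of all genes did, and 23 had an unadjusted p under 0.05, all higher (7.64% of all genes higher, 11.1% lower). By edgeR 8 passed, all higher (0.938% of all genes higher, 0.507% lower): RPS29, RPS27, RPL37, RPL37A, RPL39, RPS21, RPS19 and RPS28. Most of these encode very short proteins. The 10 core genes with the shortest coding sequences (75 to 315 bases) had a median log2 change of 0.24 and all 10 were higher, while the 10 with the longest (789 to 1281 bases) had a median of 0.02 with 6 of 10 higher.

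Inside each line the length trend was of the same sign but started from a different level. In Y483E the median log2 change (numbers 4 and 5 over number 1) was 0.33 for the 10 shortest and 0.12 for the 10 longest, and in Y483F it was 0.16 and −0.08. Over 70 core genes, leaving out the 7 with shared coding bases, the rank correlation of the change with coding length was −0.35 in Y483E and −0.69 in Y483F (Pearson's r of −0.50 and −0.69), as a description across genes that share their libraries. In Y483E 73 of 77 core genes were higher in numbers 4 and 5 than in number 1, and in Y483F 37 of 77 were.
RPS29, a short zinc-binding protein of the 40S subunit, was read at 16.7, 23.2 and 20.3 FPKM in Y483E replicates 1, 2 and 3, against 17.8, 22.6 and 21.6 FPKM in Y483F replicates 1, 2 and 3. In both lines replicate 1 was lowest and the lines overlapped. RPL41 was read at 962.1, 1278 and 1193 FPKM in Y483E, against 1058, 1075 and 1107 FPKM in Y483F. For RPL41 replicate 1 was far below the others in Y483E and close to them in Y483F. Between the lines over 6 libraries, 7 of the 10 shortest core genes were higher in Y483E with a median log2 fold change of 0.05, and 10 of the 10 longest with a median of 0.09. The rank correlation of this fold change with coding length was 0.34 over 77 core genes and 0.32 over the 70, again as a description.

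**Figure D4:**
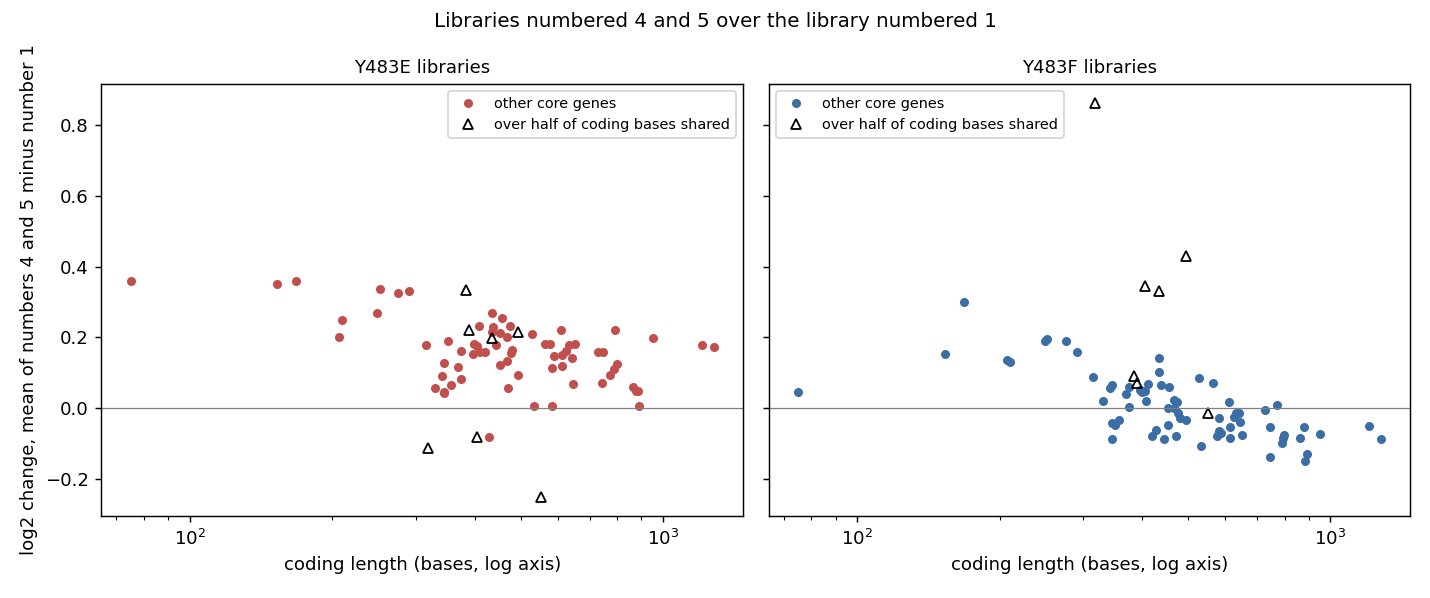
Log2 change of each core gene from the library numbered 1 to the mean of those numbered 4 and 5 against coding length (log axis), Y483E left and Y483F right, with open triangles for the 7 genes that share over 50% of their coding bases. Among the filled points, short genes tend to lie higher in both panels. In Y483F the triangles have a median of 0.33, above the 0.16 of the 10 shortest genes, with RPL36A at 0.86. The Y483E genes lie mostly above 0 (73 of 77) while those of Y483F lie on both sides (37 of 77 above).

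The paralogs had values on both sides of 0. Of the 7, RPL3L and RPL10L averaged under 1 FPKM and were not tested. RPL10L, a testis gene, had 1 read in the 6 libraries together. RPL3L, which is expressed in striated muscle, had 4, 7 and 7 reads in Y483E and 9, 7 and 8 reads in Y483F. Of the 5 tested, 3 were higher and 2 lower over 6 libraries, with a median log2 fold change of 0.01 and no call by limma. DESeq2 on the recovered reads called 1 of them, RPS27L (adjusted p = 0.00415).
RPS27L, a direct target of p53 whose coding sequence is 77.8% identical to that of RPS27, separated the lines in every library. It was read at 8.62, 8.57 and 8.41 FPKM in Y483E, against 10.2, 10.4 and 10.8 FPKM in Y483F, from 1407 to 1824 reads and from 1593 to 2014 reads. All Y483E libraries, replicate 1 included, lay below all Y483F libraries. The log2 fold change was −0.27 ± 0.04 (SE, n = 3 each, limma adjusted p = 0.257, exact two-sided permutation p = 0.1), and in the libraries numbered 4 and 5 RPS27L fell, with −0.29 ± 0.04 (SE, limma adjusted p = 0.0396). In the authors' deposited table its log2 fold change was −0.30 with an adjusted p of 0.00414. RPS27, the core gene, was read at 557.9, 713.7 and 695.0 FPKM in Y483E, against 597.4, 688.8 and 679.0 FPKM in Y483F, which overlap. RPS27L thus stood at 1.55%, 1.201% and 1.21% of the FPKM of RPS27 in Y483E and at 1.71%, 1.51% and 1.597% in Y483F. Gene length was 9127 bases for RPS27L and 1035 bases for RPS27, while both have 252 coding bases. The percentages in reads were therefore higher.
RPL39L, a testis-enriched copy of RPL39 with a coding sequence 94.8% identical to it, went the other way in the libraries numbered 4 and 5. It was read at 9.07, 10.3 and 10.6 FPKM in Y483E, against 9.31, 6.40 and 7.33 FPKM in Y483F, from 172, 254 and 208 reads and from 169, 122 and 158 reads. The high Y483F value is that of replicate 1, which lies inside the Y483E range. RPL39L rose in the libraries numbered 4 and 5 with a log2 fold change of 0.55 ± 0.07 (SE, limma adjusted p = 0.0335), and over 6 libraries the value was 0.35 ± 0.12 (SE, n = 3 each, limma adjusted p = 0.350). At this identity, reads of the much more abundant RPL39 (296 to 392 FPKM) could have been counted with it.
RPL22L1, which can take the place of RPL22, was read at 6.25, 5.49 and 4.83 FPKM in Y483E, against 6.70, 5.11 and 5.599 FPKM in Y483F. RPL26L1 was read at 48.4, 44.0 and 44.6 FPKM in Y483E, against 49.8, 38.5 and 48.3 FPKM in Y483F, which is above RPL26 in FPKM. This order depends on gene length, 1164 bases for RPL26L1 and 2513 for RPL26. Per kilobase of coding sequence RPL26L1 was lower, with 2338 reads against 3451. RPL26 shares 71.0% of its coding bases with another gene, and the median core gene had 34207 reads on this scale. The level of RPL26, and with it either order, is therefore uncertain. RPL7L1, related to a yeast factor of 60S assembly, was the highest paralog at 60.6, 57.9 and 59.6 FPKM in Y483E, against 61.7, 56.5 and 57.3 FPKM in Y483F. The lines overlapped for all 3 of these, and their log2 fold changes were −0.06, 0.01 and 0.02.

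**Figure D5:**
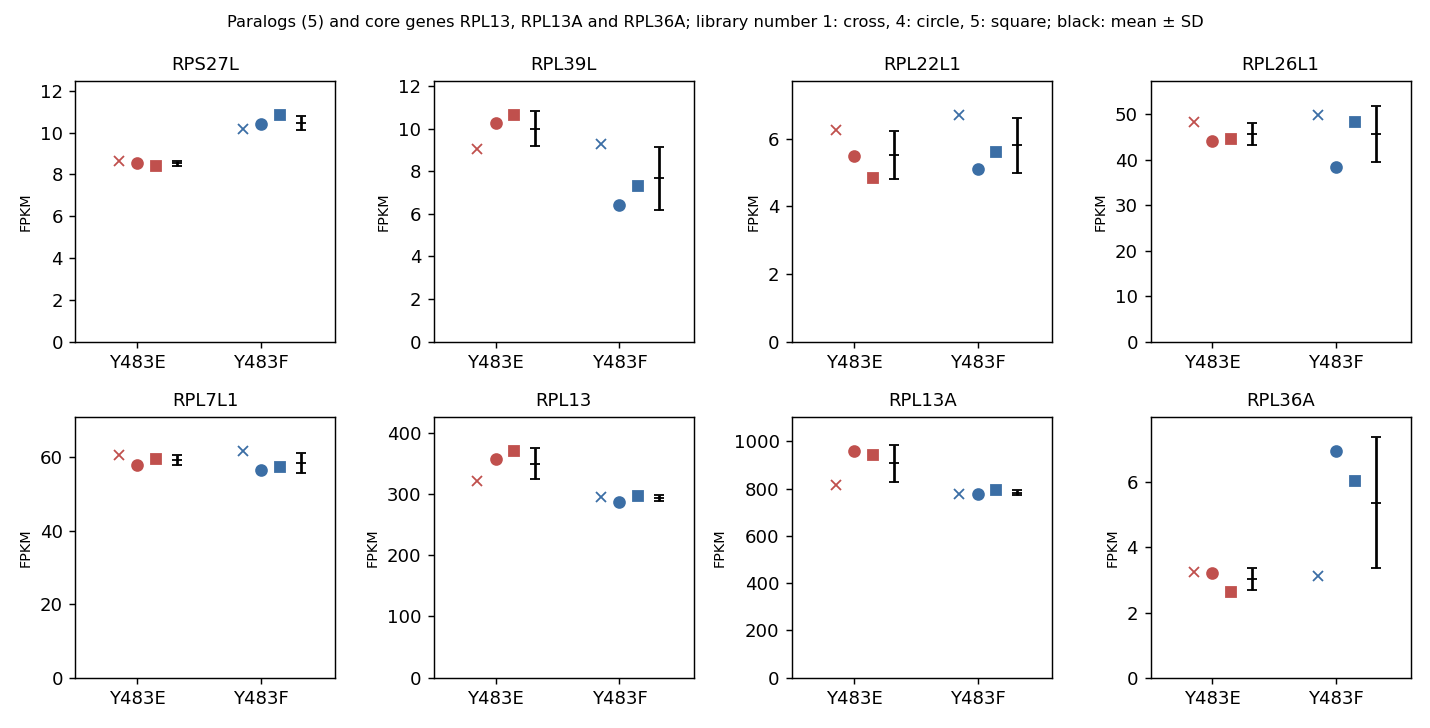
FPKM by library (axes from 0) for 5 paralogs and for RPL13, RPL13A and RPL36A, Y483E in red on the left and Y483F in blue on the right of each panel, with crosses for library number 1, circles for 4 and squares for 5, and black bars for the mean ± SD of 3 libraries. RPS27L separates the lines in every library, and RPL39L and RPL36A separate them in numbers 4 and 5 only.

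Across the authors' own comparison, which lists genes with an unadjusted p under 0.05, 27 members appear: 23 core genes higher, 2 core genes lower (RPS15A and RPL36A) and the paralogs RPS27L and RPL39L. Of all genes tested here, 5.42% are listed there as higher and 5.68% as lower. RPS27L and RPL13 are the 2 members with an adjusted p under 0.05 in the authors' deposited table. DESeq2 rerun on the recovered reads gave RPL13 0.25 (adjusted p = 0.00631), so this is not separate evidence.

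Outside the naming rule, beside RPL36AL described above, values are given for further proteins of the ribosome and for EEF1A1, whose message has a TOP motif. FAU, a ubiquitin-like protein fused to a 40S protein, was read at 157.3, 182.8 and 176.6 FPKM in Y483E, against 159.1, 158.7 and 159.5 FPKM in Y483F, and rose in the libraries numbered 4 and 5 (log2 fold change 0.17, limma adjusted p = 0.0495). EEF1A1, the elongation factor that brings aminoacyl-tRNA to the ribosome, was read at 1389, 1482 and 1498 FPKM in Y483E, against 1430, 1231 and 1296 FPKM in Y483F, and rose in the same libraries (0.24, limma adjusted p = 0.0495). RACK1, a scaffold of the 40S head, had 0.11 and did not pass there (limma adjusted p = 0.118). In each of these genes Y483E replicate 1 lay below Y483E replicates 2 and 3.

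The genes that build ribosomes had list medians just below 0. Over 6 libraries 5 of 14 genes of RNA polymerase I, which transcribes ribosomal RNA, were higher (median log2 fold change −0.02). Of the genes of the small nucleolar ribonucleoproteins and the processome, which cut and modify it, 11 of 36 were higher (median −0.04). Of small subunit maturation factors 4 of 15 were higher (median −0.02), and of large subunit assembly factors 15 of 45 (median −0.03). None of these genes passed by limma over 6 libraries, where 0.0% of all genes did. In the libraries numbered 4 and 5, where limma called 2.57% of all genes higher and 2.88% lower, 2 of 45 large subunit assembly genes were called higher and 3 lower. There 1 of 14 polymerase I genes and 1 of 36 snoRNP and processome genes were called lower, and no small subunit maturation gene was called. By edgeR, which called 7.07% of all genes higher there and 7.98% lower, more of these genes were lower. Of 46 large subunit assembly genes 2 were called higher and 10 lower, and of 36 snoRNP and processome genes 2 higher and 7 lower. Of 14 polymerase I genes 0 were called higher and 3 lower, and again no small subunit maturation gene was called. FBL, the methyltransferase of ribosomal RNA, was read at 432.7, 435.7 and 431.0 FPKM in Y483E, against 404.0, 407.1 and 423.0 FPKM in Y483F. RRP1B, of large subunit assembly, was read at 90.4, 74.0 and 78.5 FPKM in Y483E, against 97.8, 88.1 and 91.2 FPKM in Y483F, and fell in the libraries numbered 4 and 5 (−0.23, limma adjusted p = 0.0479). NPM1 and NCL, abundant nucleolar proteins, had log2 fold changes of −0.06 and −0.02 over 6 libraries.

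Of 17 genes that act on TOP messages, 9 were higher over 6 libraries with a median of 0.00. In the libraries numbered 4 and 5 limma called 1 of the 17 higher and none lower (2.57% and 2.88% of all genes). The gene called was EIF4EBP1, a repressor of cap-dependent translation that mTOR phosphorylates, singled out here for its value. It was read at 134.0, 186.8 and 184.9 FPKM in Y483E, against 134.5, 120.5 and 123.5 FPKM in Y483F. Y483E replicate 1 lay within the Y483F range, and EIF4EBP1 rose in the libraries numbered 4 and 5 with a log2 fold change of 0.60 ± 0.03 (SE, limma adjusted p = 0.00902). LARP1 was read at 77.3, 74.7 and 76.6 FPKM in Y483E, against 77.4, 75.05 and 76.1 FPKM in Y483F, a log2 fold change of 0.00 ± 0.04 (SE, n = 3 each, limma adjusted p = 0.996). MTOR had 17.9, 16.3 and 17.4 FPKM in Y483E and 16.8, 16.6 and 16.3 FPKM in Y483F. For both, the lines overlapped. MYC, a transcription factor that drives ribosome production, was read at 33.5, 33.3 and 33.8 FPKM in Y483E, against 40.7, 36.8 and 36.6 FPKM in Y483F, without overlap (log2 fold change −0.18 ± 0.05, SE, n = 3 each, limma adjusted p = 0.309). Of 9 tested genes around the 5S particle and p53, 4 were higher over 6 libraries with a median of −0.03. In the libraries numbered 4 and 5, 4 were higher with a median of −0.01. There limma called 2 of the 9 higher, SESN2 and CDKN1A, and none lower (2.57% and 2.88% of all genes). By edgeR 2 of 10 such genes were called higher there and 2 lower (7.07% and 7.98% of all genes). SESN2, a stress-induced inhibitor of mTOR signalling, was read at 27.5, 35.01 and 39.7 FPKM in Y483E, against 27.2, 26.1 and 27.7 FPKM in Y483F, so replicate 1 overlapped. Its rise in the libraries numbered 4 and 5 was 0.46 ± 0.07 (SE, limma adjusted p = 0.0386). CDKN1A, the p53 target that stops the cell cycle, was read at 17.0, 25.02 and 23.9 FPKM in Y483E, against 15.1, 20.7 and 20.6 FPKM in Y483F. It rose in the libraries numbered 4 and 5 (0.23, limma adjusted p = 0.0438), where RPS27L, also a p53 target, fell. The rises of SESN2 and CDKN1A do not stand for their list. Its genes went both ways there, with 4 of 9 higher and 2 of 10 called lower by edgeR. Replicate 1 was the lowest library of CDKN1A in both lines.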

How the data were processed

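RNA was selected with poly-T beads, per the labels' protocols, which describe stranded and unstranded libraries without saying which were made. DESeq2, DESeq, featureCounts 1.5.0-p3, HISAT2 2.0.5 and StringTie 1.3.3b are listed, per the submitters' processing notes, with no role or order. No build of the genome is named there. The deposited expression table holds FPKM values per gene made by the authors. The authors' deposited comparison holds, for 1652 genes, their raw read counts, a signal (counts divided by a size factor), log2 fold changes and p-values.

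The main test was limma 3.58.1 (R 4.3.3; lmFit, then eBayes with a trend), two-sided, on log2(FPKM + 1) for genes that averaged 1 FPKM or more, with Benjamini-Hochberg adjustment over all genes tested (12833 for 6 libraries) and a threshold of 0.05. Fold changes are Y483E over Y483F, and a pseudocount of 1 understates those of low genes. Multiplying FPKM by gene length and library total gave whole reads, within 0.01, for 100% of 146059 values above 0, so edgeR 4.0.16 (quasi-likelihood) and DESeq2 1.42.0 were run on these reads as alternatives; they called 7 and 126 genes over 6 libraries. The totals, 17204498 to 23284592 reads per library, limit what can be measured for low genes. Single FPKM values were compared by exact permutation tests.

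Overlaps and coding lengths are from GENCODE 29 on GRCh38, whose summed exon lengths equalled the authors' gene lengths for all members. Identity is over aligned coding bases of principal transcripts. Promoter sequences are from RefSeq (GRCh38.p14), matched by symbol.

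The members and the gene lists were chosen with earlier results of these data known. Genes named in the text are all paralogs and the core genes they are named after, the 5 highest and 5 lowest core genes by mean FPKM, the 4 highest and 4 lowest fold changes in each fit, every member in the authors' table, a set picked for their roles, and the 2 most abundant genes of each list of ribosome assembly and control genes; others named in the text were singled out after their values were seen. A few genes that fall under this rule are not reported here by name, but they stay in all counts, medians and fits. The library number, which the labels do not explain, was treated as a possible batch, with values given inside it. The titles call the libraries biological replicates. Whether they came from separate cultures is not stated, so p-values cover only the variation among the sequenced libraries, which may be technical.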

Additional observations from a re-analysis of the deposited data

Results flagged for a closer look

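For 5 core genes the effect of the line differed between the library numbers by edgeR's quasi-likelihood test of the interaction (effect in number 1 minus effect in numbers 4 and 5, log2). RPL41 had −0.30 (edgeR adjusted p = 0.0431, limma adjusted p = 0.244), with log2 fold changes (Y483E over Y483F) of 0.18 in numbers 4 and 5 and −0.14 in number 1. RPLP0 had −0.26 (edgeR adjusted p = 0.0496, limma adjusted p = 0.228), with 0.22 and −0.06. RPS6 had −0.29 (edgeR adjusted p = 0.0450, limma adjusted p = 0.228), with 0.18 and −0.12. RPS3A, a 40S protein, had −0.30 (edgeR adjusted p = 0.0332, limma adjusted p = 0.209), with 0.18 and −0.13. RPL36A had 1.204 (edgeR adjusted p = 0.00870, limma adjusted p = 0.197), with −0.94 and 0.04. None of the 5 passed by limma, and each value for number 1 comes from 1 library a line.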

How the results depend on the processing

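The number of core genes past the threshold over 6 libraries was 0 by limma and stayed so under another pseudocount, filter, scaling, length correction or batch term and without any 1 library; it was 20 with weights for each library, 15 in the libraries numbered 4 and 5 alone and 1 by DESeq2, and over all genes these settings gave 1888, 705 and 126 calls, and edgeR 7. In the libraries numbered 4 and 5 the count of 15 was 33 with a filter at 5 FPKM, 45 by edgeR and 52 by DESeq2, and it ranged from 0 to 6 when 1 library was left out. The filter tests fewer genes; the cause of the other differences was not tested. By edgeR 5 core genes passed for the interaction and 8 for library number, against 0 by limma for each. The core median kept its sign in every setting, from 0.0456 to 0.134, and 57 to 70 core genes were higher. Over all tested genes, same-numbered libraries of the 2 lines correlated at 0.06, 0.14 and −0.09 in their deviations. These values gave no sign of pairing by number over all genes, but they do not settle it for the core genes. Over 70 core genes, leaving out the 7 with shared coding bases, the change from number 1 to numbers 4 and 5 correlated between the lines. Pearson's r was 0.66 and the rank correlation 0.56. A replicate block over 6 libraries left 0 core calls and a median of 0.08, with length correction 0.06. In the libraries numbered 4 and 5 the replicate block gave 4 calls. Of the 53 results on single members, 40 settings brought a call and 44 turned the sign, all for genes near 0 and without a call. The sign turned for RPL11 with library weights (0.069), equal FPKM sums (0.0215) and the libraries numbered 4 and 5 (0.0272), and its value without 1 library ranged from −0.0654 to 0.0254. It turned for RPL17 with equal FPKM sums (0.00535; range without 1 library −0.108 to 0.0183). For RPL26L1 it turned with library weights (−0.0606), edgeR (−0.00478), length correction (−0.00983, and −0.00983 with the replicate block) and quantiles (−0.00749; range −0.103 to 0.0789). For RPS26 it turned with TMM (0.0059), library weights (0.00749), equal FPKM sums (0.0307) and the libraries numbered 4 and 5 (0.0274; range −0.0173 to 0.0134). For RPS27 it turned with DESeq2 (0.00102), TMM (0.00249), library weights (0.0143), equal FPKM sums (0.0274), the libraries numbered 4 and 5 (0.0422) and quantiles (0.085; range −0.0702 to 0.107). Without 1 library the values ranged from −0.0401 to 0.129 for RPL22, −0.139 to 0.033 for RPL22L1, −0.0582 to 0.144 for RPL39, −0.011 to 0.194 for RPL41, −0.00208 to 0.0605 for RPL7L1, −0.00133 to 0.116 for RPS14 and −0.151 to 0.0749 for RPS29. Depth limits RPS10 (61.3 reads on average), RPL3L and RPL10L, for which differences were not detectable.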
